A study of Rattus norvegicus with 9 samples.

Results

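The bone morphogenetic protein (BMP) ligand Bmp2, the inhibitors of DNA binding Id1, Id2 and Id3, and the inhibitory Smads Smad6 and Smad7 were followed in rat adrenal zona glomerulosa cells. Their probe sets were chosen by name, as those whose only gene symbol in the platform annotation was 1 of these 6 genes. This gave 13 probe sets out of 31042 that were not controls: 1 for Id1, 2 for Id2, 1 for Id3, 2 for Bmp2, 4 for Smad6 and 3 for Smad7. The 6 genes stand among 14217 named genes. Zona glomerulosa cells form the outer layer of the adrenal cortex and make aldosterone. Freshly dispersed cells were kept for 2 h at 37 °C in DMEM:F12 medium with fatty acid free bovine serum albumin, either unstimulated (control), with angiotensin II (Ang II, 100 nM), or with potassium at 16 mM, the peptide and the ion that drive aldosterone secretion. Each of 3 independent cell preparations gave 1 tube to each group, so a group held 3 Affymetrix Rat Genome 230 2.0 arrays and the series 9. No source used here gives the strain, sex or age of the animals, how many were pooled in a preparation, or the potassium level of the control medium.

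BMP ligands bind a pair of type I and type II receptors, which phosphorylate Smad1, Smad5 and Smad9, and these enter the nucleus with Smad4. Id genes are classical direct targets of that signal, and Id proteins bind basic helix-loop-helix (bHLH) transcription factors and keep them off DNA. Smad6 and Smad7 are induced by the same signal and inhibit it. The BMP system is known in the adrenal cortex as a modulator of steroid hormone output.

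Bmp2 and Id3 were higher after Ang II, and Id2 was higher after potassium, as was Bmp2 at 1 of its 2 probe sets. Id1, Smad6 and Smad7 did not pass the test in either direction with either stimulus. The direct comparison of the stimuli separated Id3, which was higher with Ang II, from Id2, which was higher with potassium. Because Id2 and Id3 parted in that comparison, their proximal promoters and that of Id1 are shown first, as 200 bases running from 250 to 51 bases before the RefSeq gene start (assembly GRCr8), 5′ to 3′ on the gene's strand, with the letters CCAAT or their reverse complement ATTGG in capitals. The Id1 stretch is chr3:161671314-161671513 on the plus strand, the Id2 stretch chr6:47471046-47471245 on the minus strand, and the Id3 stretch chr5:153656041-153656240 on the plus strand.
Id1: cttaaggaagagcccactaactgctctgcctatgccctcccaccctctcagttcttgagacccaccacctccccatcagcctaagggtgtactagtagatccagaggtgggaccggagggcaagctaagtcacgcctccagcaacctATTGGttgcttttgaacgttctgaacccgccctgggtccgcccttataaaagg
Id2: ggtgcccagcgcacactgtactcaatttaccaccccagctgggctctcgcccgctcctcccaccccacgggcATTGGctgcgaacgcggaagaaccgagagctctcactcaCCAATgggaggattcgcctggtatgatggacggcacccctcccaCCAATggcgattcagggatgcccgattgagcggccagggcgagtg
Id3: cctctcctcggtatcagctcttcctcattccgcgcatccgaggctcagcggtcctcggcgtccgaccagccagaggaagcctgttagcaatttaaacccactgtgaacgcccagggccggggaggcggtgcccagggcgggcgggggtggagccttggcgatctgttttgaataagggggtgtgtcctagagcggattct

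The windows differed in these letters. Id2 held CCAAT 3 times, at 178, 139 and 95 bases before the start, Id1 held it 1 time, at 103 bases, and Id3 not at all, while 28.8% of the 33469 promoters in the table held it on either strand in the same window. The GC box letters GGGCGG stood 2 times in Id1 (77 and 66 bases before the start) and 2 times, overlapping, in Id3 (116 and 112 bases), but not in Id2, against 24.2% of all promoters. The E-box letters CANNTG, of the kind bHLH proteins bind, matched 1 time in Id2, at 215 bases, and in neither of the other Id windows, against 57.9% of all. Neither the Smad box CAGAC (36.6% of all), nor the GC-rich Smad motif GGCGCC (6.56%), nor the CRE half-site TGACG (13.5%) was found in these 3 windows on either strand. All motifs were searched on both strands, and a match describes letters, not a bound site. Sequence outside these windows, nearer the start or farther upstream, was not searched, so motifs absent here may lie there. Whether any of these motifs bears on the changes of Id2 and Id3 was not tested. The G and C content was 55.5% in Id1, 63.5% in Id2 and 62.5% in Id3, where the median of all promoters was 51.0%. The promoter table held 4 of the 6 genes, and only the Id promoters are printed.

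The arrays gave 1 linear signal per probe set, whose mean without the lowest and highest 2% was 500.17 to 500.19 on every array. Over the 31042 probe sets other than controls, the array of control preparation 2 had a median signal of 172.9, against 128.0 to 143.6 on the other 8 arrays, while over the tested probe sets the medians lay between 392.5 and 426.2. Tested were the 18625 probe sets whose mean signal over the 9 arrays was above the 40th percentile, a signal of 87.1. Differences are fitted log2(signal + 16) values from limma with the cell preparation as a block. The added constant makes changes of dim probe sets look smaller. Calls were made at a Benjamini-Hochberg adjusted p of 0.05 over all tested probe sets. Of the 13 member probe sets, 10 passed the filter on mean signal; 2 of the 4 for Smad6 and 1 of the 3 for Smad7 did not. These are bulk arrays, in which a change in the number of cells of a type and a change in RNA per cell cannot be told apart.

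**Figure D1:**
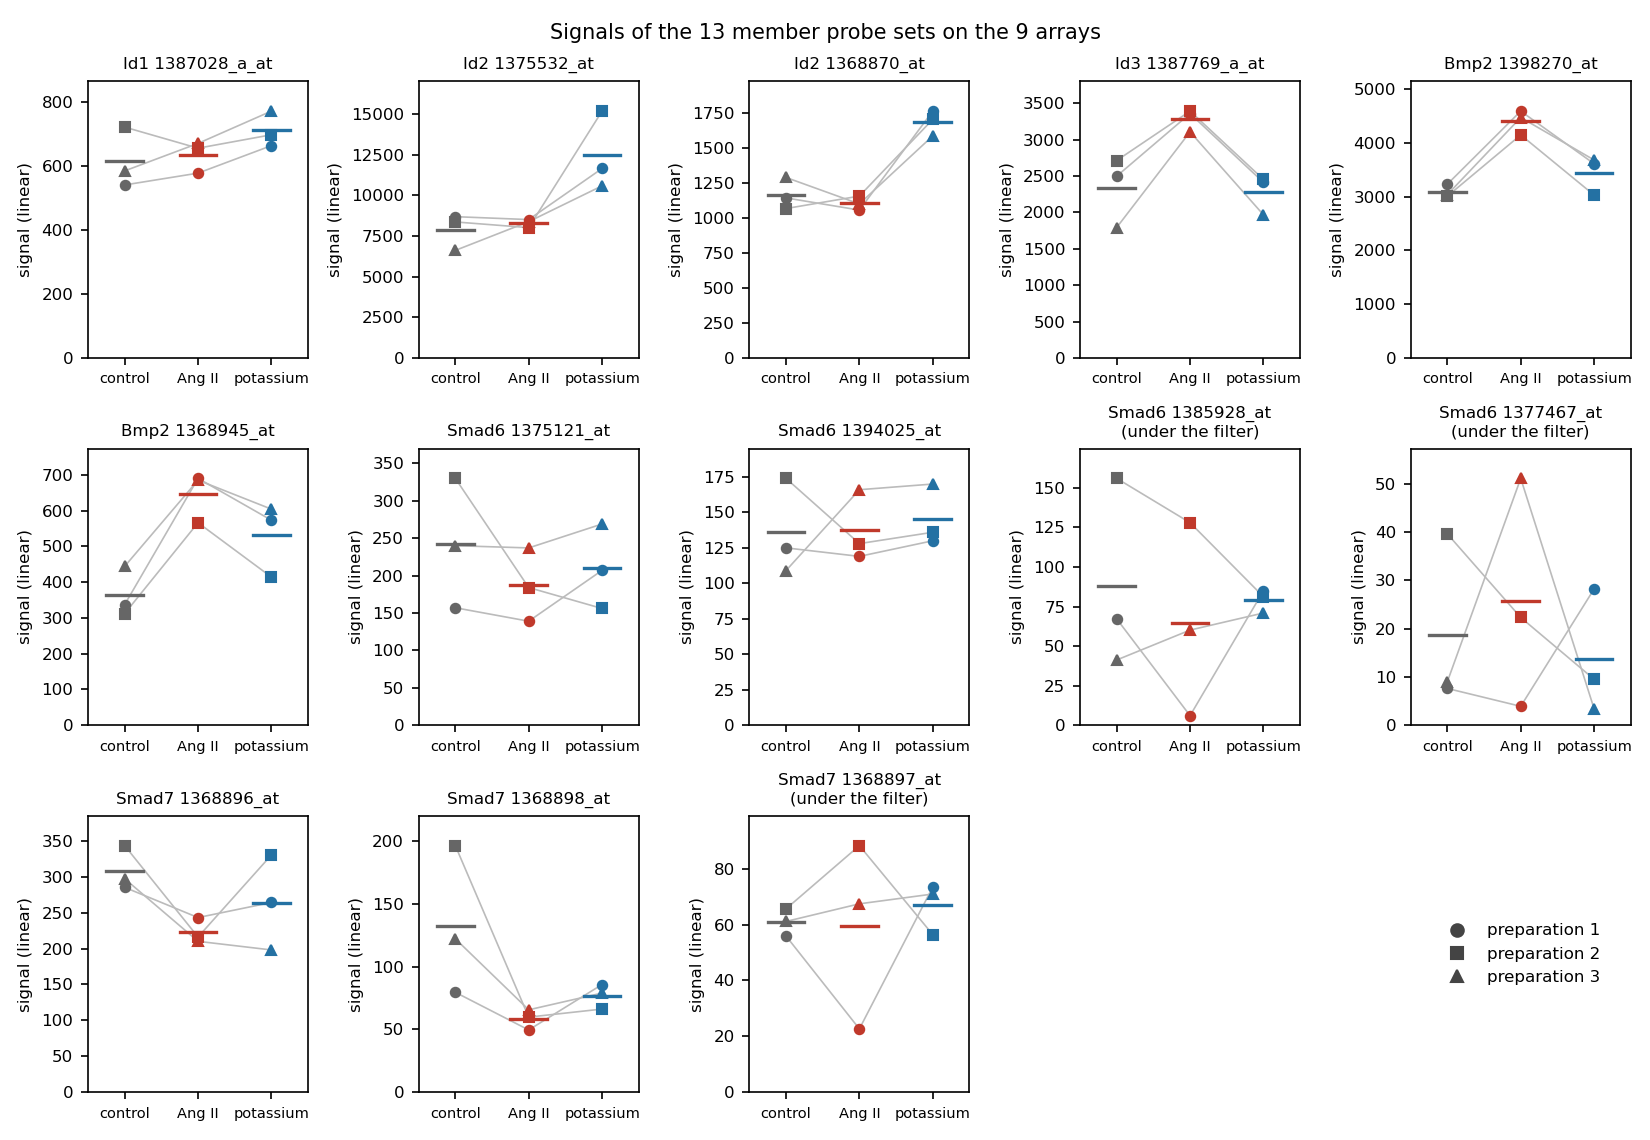
Linear signal (vertical axis, starting at 0, a separate scale for each probe set) of all 13 probe sets in the control, Ang II and potassium groups. Each point is 1 array, its shape gives the cell preparation, grey lines join a preparation, and bars are means of 3 arrays. The group means of both Bmp2 probe sets and of Id3 are highest with Ang II, and those of both Id2 probe sets with potassium. At Bmp2 probe set 1368945_at the Ang II and potassium arrays overlap.

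After Ang II, 3 of the 10 tested member probe sets were called, all higher, 1 for Id3 and 2 for Bmp2. Over all tested probe sets 2.17% were called in this comparison, 1.64% higher (306) and 0.526% lower (98). The median log2 difference was 0.04 over the 10 tested members and -0.03 over all tested probe sets. After potassium, 3 of 10 were called, all higher, 2 for Id2 and 1 for Bmp2, where 5.39% of all tested probe sets were called, 2.80% higher (521) and 2.59% lower (483). The median was 0.12 over the tested members and -0.02 over all. Between the stimuli 4 of 10 were called: Id3 and 1 Bmp2 probe set higher with Ang II, and both Id2 probe sets higher with potassium. The share over all tested probe sets was 4.79%, with 3.10% higher and 1.70% lower in Ang II than in potassium, and the medians were -0.16 and -0.01. Since the member genes were chosen with earlier results of these data known, their shares carry no test of the group. Scaling every array to the median of all probe sets moved the median of all by 0.12 in each stimulus against control, and with it the split to 425 higher and 30 lower after Ang II and to 731 and 180 after potassium. Centring on the median of the tested probe sets gave 611 and 354 after potassium. All 10 member calls kept their sign under every one of the 24 alternative settings. All 10 also rested on the intensity trend in limma's variance prior, since without it none passed, with 5, 4 and 5 members at an unadjusted p under 0.05 in the 3 comparisons.

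The ligand Bmp2 was read by a bright and a dim probe set, and both were higher after Ang II. At the bright one (1398270_at) the control arrays read 3234, 3010 and 3040, the Ang II arrays 4594, 4151 and 4475, and the potassium arrays 3614, 3031 and 3684. Every Ang II array lay above every control and every potassium array. The group means were 3094.5 ± 121.4 in control, 4406.6 ± 229.6 with Ang II and 3443.1 ± 358.6 with potassium (SD, n = 3). The fitted increase after Ang II was 1.42-fold, a log2 difference of 0.51 (SE 0.07, limma adjusted p = 9.08e-04), and 0.50, 0.46 and 0.56 in the 3 preparations. With potassium the log2 difference from control was 0.15 (SE 0.07, limma adjusted p = 0.277), and the potassium and control arrays overlapped. Ang II exceeded potassium by 1.28-fold (log2 0.36, SE 0.07, limma adjusted p = 0.0078).

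That last call was sensitive to single arrays. It did not pass without Ang II array 1 (limma adjusted p = 0.0554), without potassium array 2 (0.0652), without preparation 1 (0.12) or preparation 2 (0.0629), with all arrays scaled to the median of all probe sets (0.0883), or with no replicate block (0.0581), while the log2 difference stayed between 0.30 and 0.37 under these settings. The call against control passed in every setting but that without the trend.

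The dim Bmp2 probe set (1368945_at) read 337, 312 and 444 in control, 690, 566 and 685 with Ang II, and 573, 414 and 604 with potassium. Ang II arrays again lay above all control arrays, but potassium array 2 fell below control array 3. Means were 364.2 ± 69.95, 647.0 ± 70.58 and 530.7 ± 101.9 (SD, n = 3). The increase was 1.76-fold after Ang II (log2 0.81, SE 0.12, limma adjusted p = 0.0018) and 1.44-fold after potassium (log2 0.52, SE 0.12, limma adjusted p = 0.0228). Both stimuli were higher than control in 3 of 3 preparations. The difference between the stimuli, log2 0.29 with a 95% interval of 0.03 to 0.56, did not pass (limma adjusted p = 0.253).

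The bright and dim probe sets therefore shared the Ang II call and parted on potassium. At the dim one, the Ang II call ended without preparation 1 (limma adjusted p = 0.0776). Its potassium call ended in 10 of 24 settings, among them leaving out control array 1 (0.13), control array 2 (0.0543), potassium array 1 (0.135), potassium array 3 (0.0842), preparation 1 (0.252) or preparation 3 (0.0797), and the fit with no replicate block (0.15). Among all tested probe sets, 0.752% had a higher fitted difference than the dim Bmp2 probe set after Ang II, and 2.79% a higher one than the bright probe set.

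**Figure D2:**
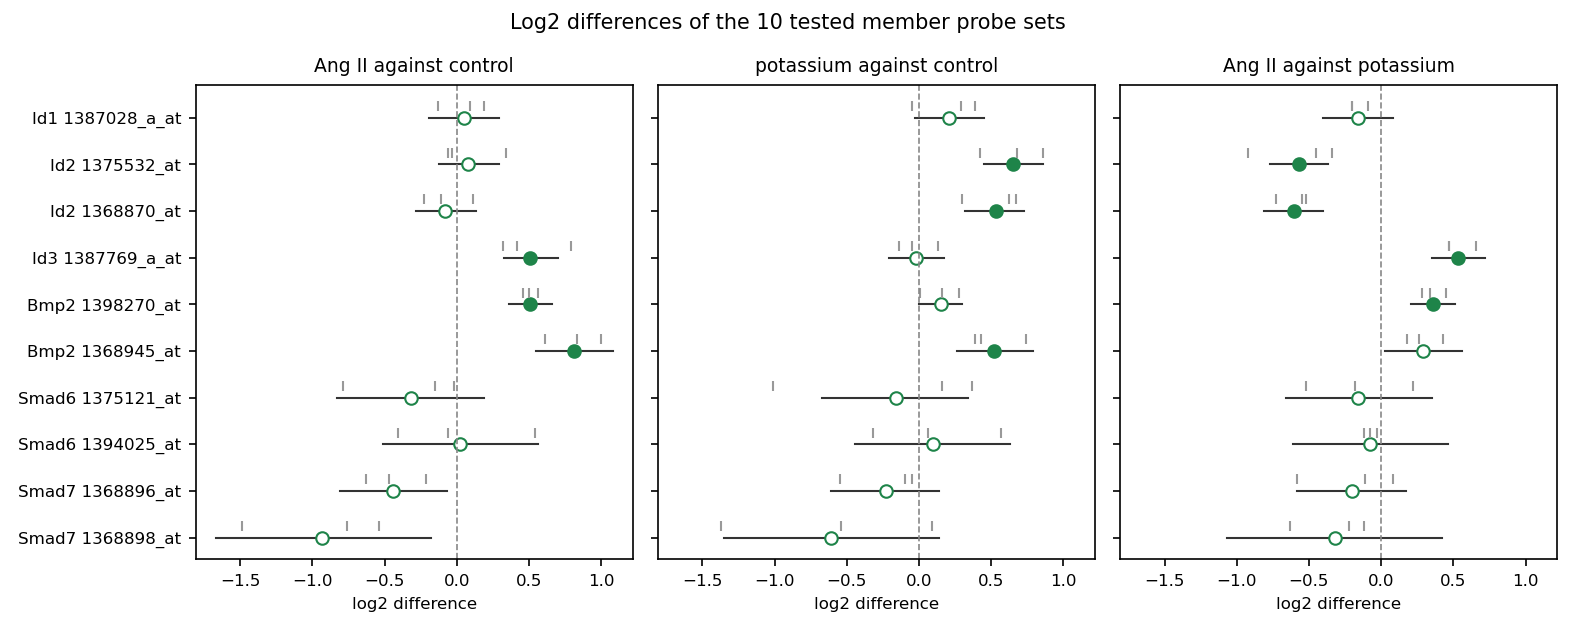
Fitted log2 differences (horizontal axis) of the 10 tested member probe sets in the 3 comparisons. Circles are estimates, filled where the limma adjusted p was under 0.05, lines are 95% intervals and grey ticks the 3 preparations. Filled circles stand right of 0 for both Bmp2 probe sets and Id3 after Ang II and for both Id2 probe sets and the dim Bmp2 probe set (1368945_at) after potassium, and the intervals of Smad6 and Smad7 are the widest.

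Id2 was higher after potassium at both of its probe sets. At 1375532_at the control arrays read 8691, 8367 and 6615, the Ang II arrays 8512, 8016 and 8384, and the potassium arrays 11655, 15186 and 10588. All 3 potassium arrays lay above all 6 others, while the Ang II and control arrays overlapped. Means were 7891.2 ± 1116.9, 8304.0 ± 257.6 and 12476.2 ± 2406.9 (SD, n = 3). Potassium raised it 1.57-fold over control (log2 0.65, SE 0.10, limma adjusted p = 6.12e-04), by log2 0.42, 0.86 and 0.68 in the 3 preparations. Ang II differed from control by log2 0.08, with a 95% interval of -0.12 to 0.29 (limma adjusted p = 0.759).

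The other Id2 probe set, 1368870_at, read 1143, 1067 and 1289 in control, 1056, 1156 and 1100 with Ang II, and 1763, 1704 and 1586 with potassium. It showed the same order, with potassium above all other arrays and no separation of Ang II from control. Means were 1166.6 ± 112.9, 1103.8 ± 50.19 and 1684.6 ± 89.82 (SD, n = 3). Potassium was 1.44-fold above control (log2 0.53, SE 0.10, limma adjusted p = 0.00382), and Ang II differed from control by log2 -0.08 (95% interval -0.28 to 0.13), a value that became 0.05 with arrays scaled to the median of all probe sets. The direct comparison put potassium above Ang II by 1.48-fold at the first Id2 probe set (limma adjusted p = 0.00215) and by 1.52-fold at the other (limma adjusted p = 0.00138), in 3 of 3 preparations at each. At 1368870_at the call against control ended without preparation 1 (limma adjusted p = 0.0852), as did the direct one (0.068).

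Id3 had the reverse order. Its probe set (1387769_a_at) read 2496, 2711 and 1791 in control, 3356, 3390 and 3105 with Ang II, and 2411, 2452 and 1966 with potassium. Every Ang II array lay above every other array, and the array of preparation 3 was the lowest in each group. Means were 2332.9 ± 481.4, 3283.7 ± 155.5 and 2276.2 ± 269.5 (SD, n = 3). Ang II raised Id3 1.43-fold over control (log2 0.51, SE 0.09, limma adjusted p = 0.00415), by 0.42, 0.32 and 0.79 in the 3 preparations. With potassium the log2 difference from control was -0.02 (95% interval -0.21 to 0.17, limma adjusted p = 0.935), and it was 0.10 or 0.02 under the scalings to the median of all or of the tested probe sets. Ang II exceeded potassium by 1.45-fold (log2 0.53, SE 0.09, limma adjusted p = 0.00175).

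Preparation mattered to the Id3 calls. Without preparation 1 the Ang II call against control ended (limma adjusted p = 0.0639), as it did without preparation 3, where the log2 difference was 0.37 (0.0677). With no replicate block the adjusted p was 0.123 against control and 0.0582 against potassium.

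Id1, often used as a readout of BMP signalling, was not called. Its probe set (1387028_a_at) read 541, 722 and 585 in control, 578, 656 and 671 with Ang II, and 664, 698 and 772 with potassium. The 3 groups overlapped, with control array 2 above all Ang II arrays. Means were 616.0 ± 94.24, 634.8 ± 49.79 and 711.5 ± 54.99 (SD, n = 3). The log2 difference from control was 0.05 after Ang II (95% interval -0.19 to 0.29, limma adjusted p = 0.894) and 0.21 after potassium (-0.03 to 0.45, limma adjusted p = 0.344). The upper ends of these intervals correspond to 1.22-fold and 1.37-fold, so the Ang II interval does not reach the fitted change of Id3 or Bmp2.

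A further Id gene, Id4, was read by 4 tested probe sets, none of which was called in any comparison. At the brightest (1394022_at) the log2 difference was 0.37 (SE 0.27) after Ang II and 0.57 (SE 0.27) after potassium (limma adjusted p = 0.583 and 0.27). At Id4 probe set 1375183_at both were below 0, -0.45 after Ang II and -0.10 after potassium, so the Id4 probe sets disagreed in sign.

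Smad7, which blocks receptors of both the BMP and the TGF-beta branch, had lower readings after Ang II at both tested probe sets, but neither passed the test. At 1368896_at the arrays read 285, 343 and 297 in control, 243, 216 and 210 with Ang II, and 264, 330 and 198 with potassium. No Ang II array reached the lowest control array, and the potassium arrays spanned both. The log2 difference after Ang II was -0.44 (SE 0.17, 95% interval -0.81 to -0.07, limma adjusted p = 0.25), and after potassium -0.23 (SE 0.17, limma adjusted p = 0.517). At 1368898_at the readings were 79.5, 196 and 122 in control, 49.6, 59.8 and 65.6 with Ang II, and 85.7, 66.2 and 78.9 with potassium. Here the Ang II arrays lay below all others, and control array 2 stood highest. With a mean of 89.25, this probe set passed the filter of 87.1 narrowly, and only through its control arrays. Its control mean was 132.5, while every Ang II and potassium reading lay under 87.1, so its difference from control is weak evidence. The log2 difference after Ang II was -0.93 (SE 0.35, 95% interval -1.67 to -0.18, limma adjusted p = 0.22) and -0.60 without control array 2 (adjusted p = 0.556). The remaining Smad7 probe set, 1368897_at, was under the filter, with readings between 22.7 and 88.2 and overlapping groups. Its means were 60.88 in control and 59.42 with Ang II.

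Smad6, the inhibitor more selective for BMP receptors, was dim at all 4 probe sets. Its brightest, 1375121_at, read 157, 330 and 240 in control, 139, 184 and 237 with Ang II, and 207, 156 and 269 with potassium, and the groups overlapped. The log2 difference was -0.32 (SE 0.24, limma adjusted p = 0.595) after Ang II and -0.16 (SE 0.24, adjusted p = 0.774) after potassium. At 1394025_at the readings ran from 109 to 174 over the 9 arrays, with log2 differences of 0.02 and 0.10 (SE 0.25 each). The probe sets under the filter read 6.0 to 156 (1385928_at) and 3.4 to 51.1 (1377467_at). Control array 2, the array with the high median over all probe sets, gave the highest of the 3 control readings at each of the 7 Smad6 and Smad7 probe sets. With every array scaled to the median of all probe sets, the log2 differences after Ang II were -0.32 and -0.82 at the tested Smad7 probe sets and -0.20 and 0.13 at those of Smad6. Without control array 2 they were -0.44 and -0.60 for Smad7 and 0.01 and 0.23 for Smad6, and none passed under either setting. At 1394025_at the 95% interval after Ang II ran from -0.51 to 0.56, so it holds both no change and the fitted change of the bright Bmp2 probe set.

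Across the 9 arrays, after the mean of each preparation was removed, the log2 values of Id3 and the bright Bmp2 probe set correlated at 0.91, those of the Bmp2 probe sets at 0.89 and those of the Id2 probe sets at 0.83. Id2 correlated with Id3 at -0.31 (1375532_at) and -0.63 (1368870_at), and the bright Bmp2 probe set with Smad7 at 1368896_at at -0.85. These describe 9 arrays that share the 3 treatments, and carry no test. By the same measure the genes most like Bmp2 were Cish (0.986), Fbxl17l1 (0.983) and Dst (0.982), those most like Id2 were Serp1 (0.995), Ermp1 (0.990) and Ints6l (0.986), and those most like Id3 were Pfdn4 (0.991), Ifih1 (0.969) and Mapk8 (0.969). For Id1 they were Gpd2 (0.995), Rnf32 (0.986) and Acer2 (0.977), for Smad6 Rgmb (0.985), Mlxip (0.983) and Arhgdib (0.983), and for Smad7 Psme3ip1 (0.981), Nt5dc1 (0.973) and Anapc16 (0.972). All were picked as the highest among the tested probe sets with a gene symbol, so high values carry no test. Only Cish and Dst of these genes were called after Ang II, and only Serp1 and Ints6l after potassium. Rgmb, which encodes a BMP co-receptor, and Smad6 at 1375121_at both read highest in control array 2, at 350 and 330. That is the array with the high median over all probe sets. Neither gene was called, and a link between them was not tested.

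The rest of the pathway was described with 6 lists holding 171 genes, of which 141 were on the array and 106 were tested, each at its brightest tested probe set. After Ang II 4 were called higher and 4 lower, after potassium 7 higher and 4 lower, and with Ang II against potassium 4 higher and 6 lower. Those calls make 7.55%, 10.4% and 9.43% of the listed genes tested. Over all 10392 genes taken the same way, 1.92% were called higher and 0.597% lower after Ang II. The shares were 2.60% and 3.26% after potassium, and 3.58% and 1.74% in the direct comparison. The lists were chosen with earlier results of these data known, so these shares carry no test of the pathway.

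Among the other ligands of the superfamily (14 of 31 tested) 1 was higher after Ang II, the stress-induced cytokine Gdf15. It read 183, 166 and 276 in control, 567, 420 and 506 with Ang II, and 238, 328 and 261 with potassium, so that the Ang II arrays lay above all others. The increase was 2.32-fold (log2 1.22, SE 0.19, limma adjusted p = 0.00241), and Ang II exceeded potassium by 1.76-fold (adjusted p = 0.0224). After potassium no ligand of this list was called by limma, with 1 higher and 0 lower at an unadjusted p under 0.05. Besides Gdf15, the direct comparison put Inhba, the activin A subunit, 1.39-fold higher with Ang II (adjusted p = 0.00664). Its Ang II and potassium arrays overlapped, though Ang II was higher within each preparation. The other Inhba probe set, 1369012_at, read log2 0.51 and was not called (limma adjusted p = 0.302). The direct comparison also put Amh, anti-Müllerian hormone, 2.35-fold higher with Ang II (adjusted p = 0.0266). Amh was dim, reading 86.2, 161 and 65.2 in control, 201, 187 and 119 with Ang II, and 84.5, 79.3 and 32.0 with potassium. All its potassium readings lay under the signal set as the filter, and the call ended when no filter was used. Bmp5 differed by log2 0.39 from control with each stimulus (SE 0.13) without passing (adjusted p = 0.162 and 0.111), and Bmp4 and Bmp6 were not called either. The median log2 difference of the list was -0.04, -0.06 and -0.05 in the 3 comparisons, against -0.03, -0.03 and -0.01 over all genes.

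Of 13 receptors tested, 1 fell with both stimuli, the TGF-beta type I receptor Tgfbr1. Its control arrays read 4026, 3702 and 4556, its Ang II arrays 3363, 2977 and 3010, and its potassium arrays 3174, 2397 and 2768. All 6 stimulated arrays lay below all controls. The fall was log2 -0.39 (SE 0.08, limma adjusted p = 0.0227) with Ang II and -0.56 (SE 0.08, adjusted p = 7.22e-04) with potassium. No receptor was called between the stimuli, and limma gave 0 receptors at an unadjusted p under 0.05 there. The BMP receptors Bmpr1a, Bmpr2 and Acvr1 and the co-receptor endoglin (Eng) were not called: their log2 differences from control were -0.15, 0.07, 0.18 and -0.07 after Ang II and -0.24, -0.14, 0.26 and -0.03 after potassium. Receptor medians were -0.07, -0.14 and -0.01.

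Of 10 secreted or surface antagonists tested, Bambi, a decoy receptor that lacks the kinase, was higher after potassium. The control arrays read 781, 780 and 789, the Ang II arrays 929, 914 and 880, and the potassium arrays 1086, 1295 and 1101. The 3 groups did not overlap, with Ang II between control and potassium. Potassium was 1.47-fold above control (log2 0.55, SE 0.10, limma adjusted p = 0.00282), while Ang II at log2 0.21 did not pass (adjusted p = 0.339). No antagonist was called after Ang II or between the stimuli, where limma gave 1 higher and 0 lower, and 0 higher and 3 lower, at an unadjusted p under 0.05. List medians were -0.06, 0.00 and -0.09.

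Signal-transducing Smads and their intracellular regulators (32 tested) gave 3 calls after Ang II and 4 after potassium. Smad1, Smad4 and Smad5 differed from control by log2 -0.08, -0.03 and 0.05 after Ang II and by -0.10, 0.17 and 0.07 after potassium, and none was called. Ang II raised Skil, a corepressor of Smads (log2 0.34, SE 0.07, adjusted p = 0.0201), and Ccnc, a Mediator subunit (log2 0.50, SE 0.10, adjusted p = 0.0125). The other Ccnc probe set, 1389101_at, read log2 0.51 and was not called (limma adjusted p = 0.161). The phosphatase gene Ctdsp2 fell with Ang II (log2 -0.37, adjusted p = 0.0137) and with potassium (log2 -0.28, adjusted p = 0.0385). Potassium raised Tob1, an antiproliferative Smad partner (log2 0.37, adjusted p = 0.0365), and the deubiquitinase Usp9x (log2 0.47, adjusted p = 0.0145), and lowered the corepressor Tgif1 (log2 -0.26, adjusted p = 0.044). The other 3 Usp9x probe sets were not called after potassium, and 1 of them, 1372121_at, read log2 -0.07. No gene of this list was called between the stimuli by limma, with 3 higher and 1 lower at an unadjusted p under 0.05. Its medians were -0.02 in each comparison.

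Of 22 further transcriptional targets of BMP and TGF-beta tested, 1 was called higher and 1 lower after Ang II, 2 higher and 0 lower after potassium, and 0 higher and 4 lower between the stimuli. Beside the counts of 0, limma gave 4 lower after potassium and 0 higher between the stimuli at an unadjusted p under 0.05. Klf10, a TGF-beta inducible repressor, read 1397, 1279 and 1168 in control, 704, 674 and 673 with Ang II, and 1100, 1136 and 882 with potassium. The Ang II arrays lay below all others. The fall after Ang II was log2 -0.89 (SE 0.10, limma adjusted p = 1.04e-04), and Ang II was below potassium by log2 -0.58 (adjusted p = 0.00218). Junb, an AP-1 subunit that many stimuli induce, rose 1.37-fold with Ang II (adjusted p = 0.00463) and 2.15-fold with potassium (adjusted p = 5.00e-07). Msx1, a homeobox repressor, rose 1.53-fold with potassium (adjusted p = 0.00692). Msx1, Junb and the T-box factor Tbx3 were lower with Ang II than with potassium (log2 -0.44, -0.65 and -0.51), as was Klf10, so all 4 calls of the direct comparison lay on that side. The other 3 Tbx3 probe sets, at log2 -0.23, -0.42 and -0.42, were not called there (limma adjusted p = 0.431, 0.123 and 0.323). The list medians were -0.13 after Ang II, 0.00 after potassium and -0.17 between the stimuli.

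Among the bHLH proteins and other Id partners (15 tested), the bHLH factor scleraxis, Scx, rose most. It read 613, 722 and 841 in control, 725, 628 and 670 with Ang II, and 3322, 2434 and 2814 with potassium. Potassium arrays stood far above the rest, and Ang II and control overlapped. Potassium raised Scx 3.88-fold (log2 1.95, SE 0.12, limma adjusted p = 1.24e-07), and Ang II was lower than potassium by log2 -2.05 (adjusted p = 1.21e-07). The clock-linked repressor Bhlhe40 rose 1.59-fold with potassium (adjusted p = 0.00342), whereas its relative Bhlhe41 fell with Ang II (log2 -0.56, adjusted p = 0.0315) and with potassium (log2 -0.53, adjusted p = 0.0227). Ets2 was higher with Ang II than with potassium (log2 0.27, adjusted p = 0.0266), and Bhlhe40 lower (log2 -0.53, adjusted p = 0.0182). The E proteins Tcf4 and Tcf12, the usual partners of Id proteins, were not called, at log2 -0.01 and -0.01 after Ang II and -0.13 and 0.03 after potassium. The medians of this list were -0.01, -0.05 and -0.03.

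Of the 29 calls in these lists, 4 passed under all 24 alternative settings: Klf10 after Ang II, Junb and Scx after potassium, and Scx between the stimuli. In 10 or more settings the calls of Skil (10), Tgfbr1 (11) and Bhlhe41 (12) after Ang II, Tgif1 (15), Ctdsp2 (15), Tob1 (11) and Bhlhe41 (11) after potassium, and Amh (12), Ets2 (13) and Msx1 (17) between the stimuli ended. These settings include leaving out single arrays and preparations.

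**Figure D3:**
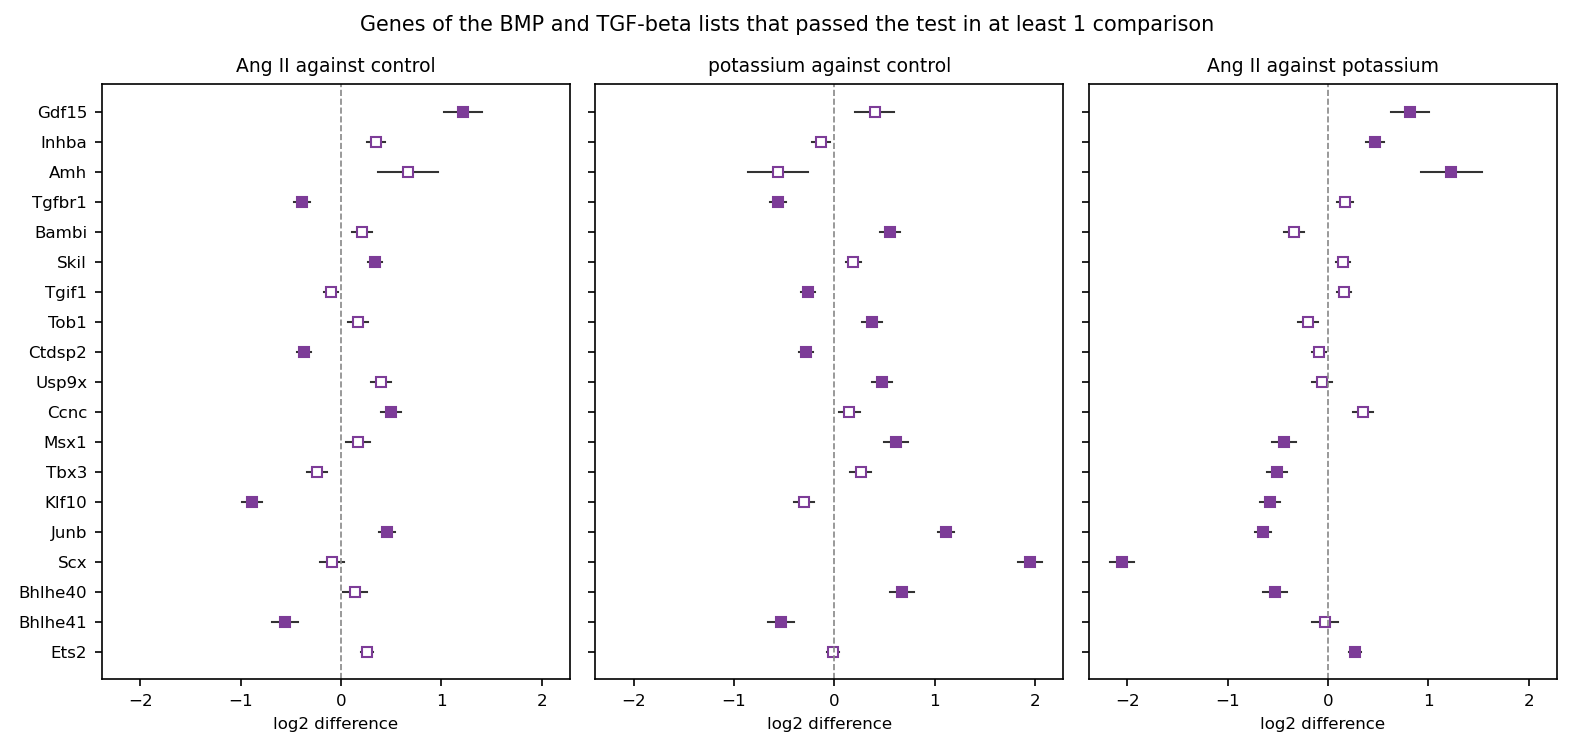
Log2 differences (horizontal axis) of the 19 listed genes called in at least 1 comparison, each at its brightest tested probe set. Squares are estimates, filled where the limma adjusted p was under 0.05, and lines are ± 1 SE. Scx stands farthest from 0, at 1.95 after potassium and -2.05 between the stimuli.

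Markers of the labelled type were read, and so were markers of the zona fasciculata. Dab2, Wnt4 and Vsnl1, genes of the zona glomerulosa, had mean signals over the 9 arrays of 11902.5, 5110.7 and 6211.9. Kcnk9 of the same list was dim at 93.89, and Cyp11b2 was not analysed here. Of the zona fasciculata markers, Akr1b7 read 28779.9, Fdx1 27316.5 and Cyp11b1 3486.1 (1838.7 to 5413.4 over the arrays), while Cyp17a1 was under the filter at 6.663. These signals do not separate the zones from each other. Star, which carries cholesterol into mitochondria, was called higher with both stimuli, and Wnt4 was called lower after Ang II. Endothelial cells also make Bmp2 and Id proteins, and their markers were clearly read: 11 of 12 on the array were tested, with Kdr at 7900.4 and Pecam1 at 1493.6, and Vwf under the filter at 61.72. Their summed signal was 34478 to 43192 in control, 34593 to 43531 with Ang II and 37177 to 45051 with potassium, which overlap. Limma called none of them in the 3 comparisons, with 2 higher after potassium and 1 lower between the stimuli at an unadjusted p under 0.05. Which cells carried the Bmp2, Id2 and Id3 changes was not tested.

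Sums for the other cell types overlapped between each stimulus and control as well. Fibroblast markers (10 tested) summed to 18466 to 22228 in control, 17808 to 22457 with Ang II and 20445 to 23784 with potassium. Macrophage markers (11 tested) summed to 11277 to 15279, 11599 to 14963 and 9777 to 14718. Smooth muscle and pericyte markers (7 tested) summed to 6727 to 9397, 7486 to 10149 and 7241 to 9288, with Acta2 called higher after Ang II. Sums of medullary markers were 2937 to 3784, 2812 to 3615 and 2774 to 3916, and those of lymphocyte markers 1268 to 1871, 1297 to 1617 and 1139 to 1811. Zona fasciculata markers summed to 61059 to 71115, 69040 to 70541 and 67424 to 69012, and zona glomerulosa markers to 116096 to 125965, 119513 to 125115 and 121515 to 130956. Acta2, Star and Wnt4 apart, limma called no marker against control, and at an unadjusted p under 0.05 the largest counts there were 2 higher or 2 lower in a list. Between the stimuli limma called Wnt4 lower with Ang II than with potassium, and no other marker. Of the 12 zona glomerulosa markers tested, 5 were lower and 0 higher in that comparison at an unadjusted p under 0.05.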

How the data were processed

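The deposited table gives a linear intensity for each probe set on each array. GCOS, software of the array maker, is named by the submitters' processing notes, and no source used here gives its version, background method or summary. Symbols came from the platform annotation, updated through RefSeq genes of GRCr8: 20826 of 31099 probe sets had 1 symbol, 436 several and 9780 none, and 57 controls were left out. All 9 arrays were fitted as log2(signal + 16) in R 4.3.3, using lmFit, contrasts.fit and eBayes with trend of limma 3.58.1, with a fixed term for each preparation and with 4 residual and 10.7 prior degrees of freedom.

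The design text pairs the arrays by preparation. On deviations from the group means, arrays of 1 preparation correlated at 0.11 to 0.27 and others at -0.21 to 0.04. The 6 genes and all lists, of the pathway and of cell type markers, were chosen with earlier results of these data known. Named were every member probe set, up to 4 list genes with the smallest p in each comparison, the 3 genes most like each member, and up to 3 markers of a list. Genes named outside this rule were added after their values were seen. Among them were Bmp4, Bmp6, Id4, the receptors, Smads and E proteins, named for their known role. Others were further markers that were called, dim or not analysed here.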

Additional observations from a re-analysis of the deposited data

How the results depend on the processing

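The 30 member differences were recomputed under 24 settings, which gave 711 values: 653 kept direction and side of the threshold, 32 kept direction but no longer passed, and 26 changed sign. All 26 were uncalled, with adjusted p of at least 0.636. Of these, 3 came from scaling: Id2 at 1368870_at after Ang II (0.05) and Id3 after potassium (0.10 and 0.02). The other 23 came from leaving out an array or a preparation. After Ang II those values ran from -0.17 to 0.02 for Id2 at 1368870_at, -0.05 to 0.21 for Id2 at 1375532_at, -0.03 to 0.16 for Id1, -0.49 to 0.01 for Smad6 at 1375121_at and -0.24 to 0.24 for Smad6 at 1394025_at. After potassium they ran from -0.13 to 0.06 for Id3 and from -0.43 to 0.26 and -0.15 to 0.31 for these Smad6 probe sets, and between the stimuli from -0.46 to 0.07 and -0.22 to 0.03 for the same. Members called numbered 0 in all 3 comparisons without the intensity trend, and 2 in each comparison with no replicate block. Leaving out an array or preparation gave 1 to 3 members after Ang II, 1 to 3 after potassium and 2 to 4 between the stimuli. Listed genes called numbered 1, 3 and 1 without the trend, 5, 6 and 6 with no replicate block, and 1 to 9, 6 to 12 and 2 to 11 with arrays left out. Over all tested probe sets the calls were 32, 256 and 155 without the trend and 193, 499 and 442 with no block. Scaling to the median of all left 555 between the stimuli. With the mean of a gene's tested probe sets in place of the brightest, list medians became -0.06 for ligands after Ang II, 0.09 and 0.03 for antagonists and further targets after potassium, and -0.11 and -0.21 for the same lists between the stimuli. The cause of these shifts was not tested.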
